A study of Homo sapiens with 5 samples.

Results

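The expressed protein-coding genes of chromosome 21 were examined in LNCaP cells, an established androgen-sensitive line of human prostate cancer. Genes were chosen by their mean log2 intensity over all 5 arrays, which had to be above 5, and 79 of the 147 protein-coding genes measured on the chromosome met this, out of 14812 genes measured in all. Both groups carried a short hairpin RNA delivered by retrovirus under puromycin selection, a scrambled one in shControl (2 arrays) and one against RB1 in shRB (3 arrays). Both had received 10 Gy of ionizing radiation 24 h before RNA isolation, and unirradiated cells were not analysed here. The labels say neither whether separate cultures were used for replicate arrays nor whether a group is 1 clone, so the p-values measure only the spread between these arrays, which may be technical. The level of 5 uses the mean of both groups together and not their difference. It does choose genes by brightness, so levels are given as a description.

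Chromosome 21 is among the smallest human chromosomes, and a whole extra copy of it causes Down syndrome. Its expressed genes have no common function and share a chromosome only. They include DYRK1A, a kinase, APP, the amyloid precursor, and RNA processing factors such as U2AF1 and SON. Hair keratin-associated protein genes are also among them, most of those above the level lying towards the far end. LNCaP is aneuploid and carries more chromosomes than a normal cell. The arrays measured RNA and not DNA. In such bulk RNA, a lower level in every cell cannot be told apart from a lower level in some of the cells.

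The hairpin's target RB1, on chromosome 13, stood at log2 5.81 and 5.70 in shControl and at 5.16, 5.28 and 5.20 in shRB, a difference of -0.54 (SE 0.14) that did not pass the test over all genes (limma, adjusted p = 0.0967). All 6 measured luminal prostate markers lay above log2 5, with KLK3 at a mean of 10.10. No measured neuroendocrine, fibroblast or blood marker lay above log2 5. The basal marker KRT5, at a mean of 5.26, and the endothelial marker VWF, at 5.87, did. Summed after removal of a constant of 16 that the deposited intensities appear to hold, the 2 endothelial markers were at 57.9 to 75.4 in shControl and 26.6 to 46.0 in shRB. Of these 2, VWF differed by -0.65 in log2 intensity and KDR by -0.09. The 1 blood marker, CD14, was at 2.54 to 3.57 in shControl and 6.08 to 8.92 in shRB. Its log2 intensities of 4.21 to 4.64 lie near the lowest deposited value. Whether endothelial or blood cells were present at all, or bear on the results, was not tested.

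Most expressed genes of chromosome 21 had lower RNA levels in shRB. The log2 difference, shRB minus shControl, was negative for 67 of the 79 genes (84.8%), against 46.2% of all genes tested and 46.1% of the 7726 protein-coding genes above the same level on other chromosomes. The median difference was -0.23, with quartiles of -0.38 and -0.09, against a median of 0.02 over all genes tested. On the deposited scale the median gene stood at 85.5% of its shControl level, and with the apparent constant of 16 taken off at 80.7%. For 40 genes (50.6%) all 3 shRB arrays lay below both shControl arrays, as they did for 15.4% of all genes tested and 18.0% of those on other chromosomes above the level. For 3 genes (SCAF4, DONSON and PKNOX1) all shRB arrays lay above, which 20.6% and 23.9% did.

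Single genes seldom passed the test across all genes. Of the 79, 1 passed at an adjusted p of 0.05 (limma, Benjamini-Hochberg over all 14812 genes), or 1.27%, against 1.07% of all genes tested and 1.51% of those on other chromosomes above the level. By direction, 1 was lower and 0 higher, where 0.378% and 0.695% of all genes tested were, and 0.492% and 1.02% of those on other chromosomes. The share of called genes was thus near the background. At an adjusted p of 0.1 (limma), 4 were lower (BRWD1, DYRK1A, RRP1 and SIK1), or 5.06%, against 1.13% and 1.45%. At an unadjusted p of 0.05, 24 were lower and 2 higher, or 30.4% and 2.53%, where 7.22% and 10.9% of all genes were, and 8.85% and 13.8% of those on other chromosomes. The values of single genes often rested on 1 array. With 1 array left out in turn, the difference moved up or down by over 1.5 times for 53 of the 79 genes. It did so for 45 of the 79 when that array was 1 of the 2 shControl arrays. The rule is a ratio, so nearly level genes meet it with small changes, such as MRPL39, from 0.02 to 0.08 without shControl replicate 2. The same count over all genes is not given here.

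The shift was seen on every array. The median log2 intensity of the 79 genes was 6.34 and 6.34 on the shControl arrays and 6.11, 6.09 and 6.03 on the shRB arrays. The 7726 protein-coding genes of the other chromosomes above the same level had medians of 6.31 and 6.27 in shControl and 6.36, 6.34 and 6.31 in shRB. The groups did not overlap for chromosome 21, which was lower in shRB, while for the other chromosomes they did. Taking the arrays in pairs, the median difference over the 79 genes was -0.33 to -0.19 in the 6 pairs of an shRB with an shControl array, with 56 to 67 genes lower in shRB. In the 4 pairs within a group it was -0.06 to 0.02. For the other chromosomes the 6 pairs between groups gave -0.02 to 0.08.

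**Figure D1:**
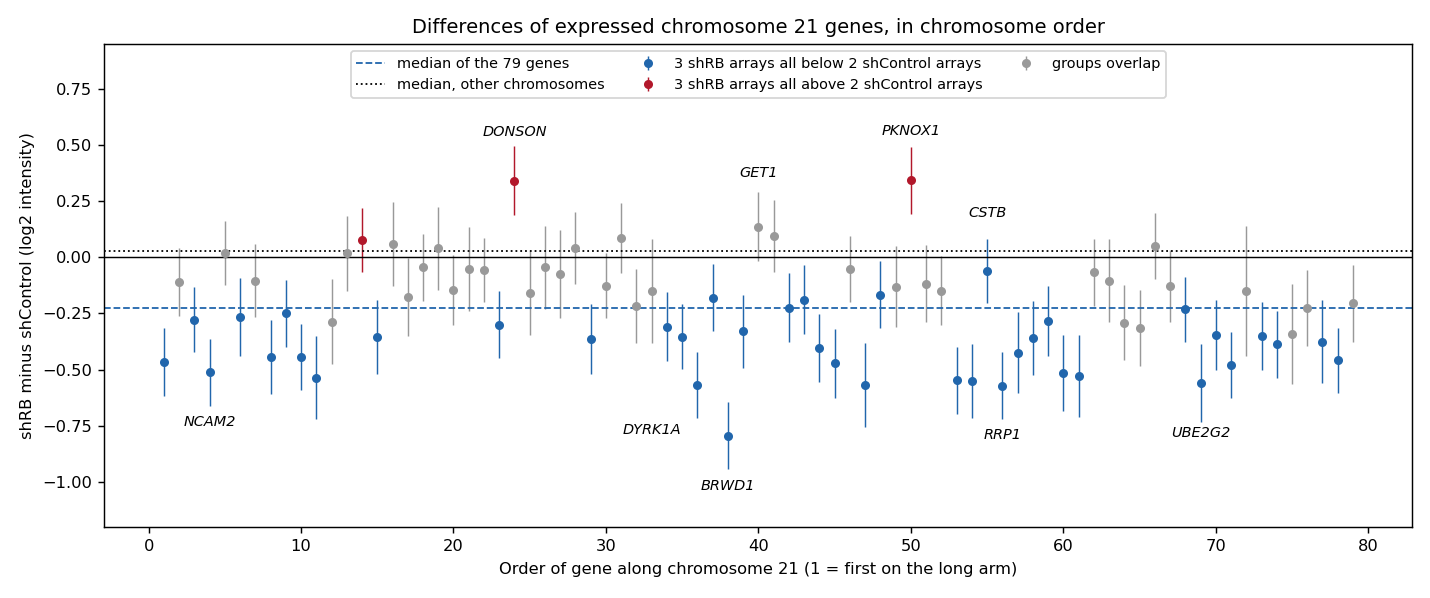
Log2 difference (shRB minus shControl, y axis) of each of the 79 genes in their order along chromosome 21 (x axis), with bars of 1 standard error from limma; blue points are genes whose 3 shRB arrays all lie below both shControl arrays, red points those whose shRB arrays all lie above, and grey points those that overlap. The points lie mostly below 0, around the median of -0.23 (dashed). They are closer to level from KRTAP11-1 to CLDN14, a stretch that begins and ends at genes with positive differences. The median of the other chromosomes is 0.03 (dotted).

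The lower levels were not confined to a single stretch. Medians varied along the chromosome, but whether parts of it differ was not tested. In 4 consecutive blocks of its expressed genes, the median difference was -0.21 from NRIP1 to PAXBP1, -0.15 from IFNGR2 to GET1, -0.25 from SH3BGR to CFAP410 and -0.32 from TSPEAR to PRMT2. The number of negative differences in these blocks was 15 of 20, 16 of 20, 18 of 20 and 18 of 19. The quartiles of the blocks overlapped, at -0.31 and -0.05 from IFNGR2 to GET1 and -0.38 and -0.18 from TSPEAR to PRMT2. The longest run of neighbours with negative differences held 15 genes, from CBS to KRTAP10-10, and the next 13 genes, from KRTAP12-3 to PRMT2 at the end of the chromosome. Only KRTAP12-4 (0.05) separates these runs. Genes with positive differences stood alone or as a pair of neighbours. The stretch from KRTAP11-1 to CLDN14, which crosses the border between the blocks at PAXBP1 and IFNGR2, was closer to level. It begins and ends at genes with positive differences, so it was bounded by the values it describes. It holds the positive differences of KRTAP11-1, SCAF4, MRAP, SYNJ1, DONSON, CBR3 and CLDN14. All but those of SCAF4 and DONSON changed sign when 1 array was left out. Its longest run of negative differences held 4 genes, from PAXBP1 to SON, with a median of -0.10.

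**Figure D2:**
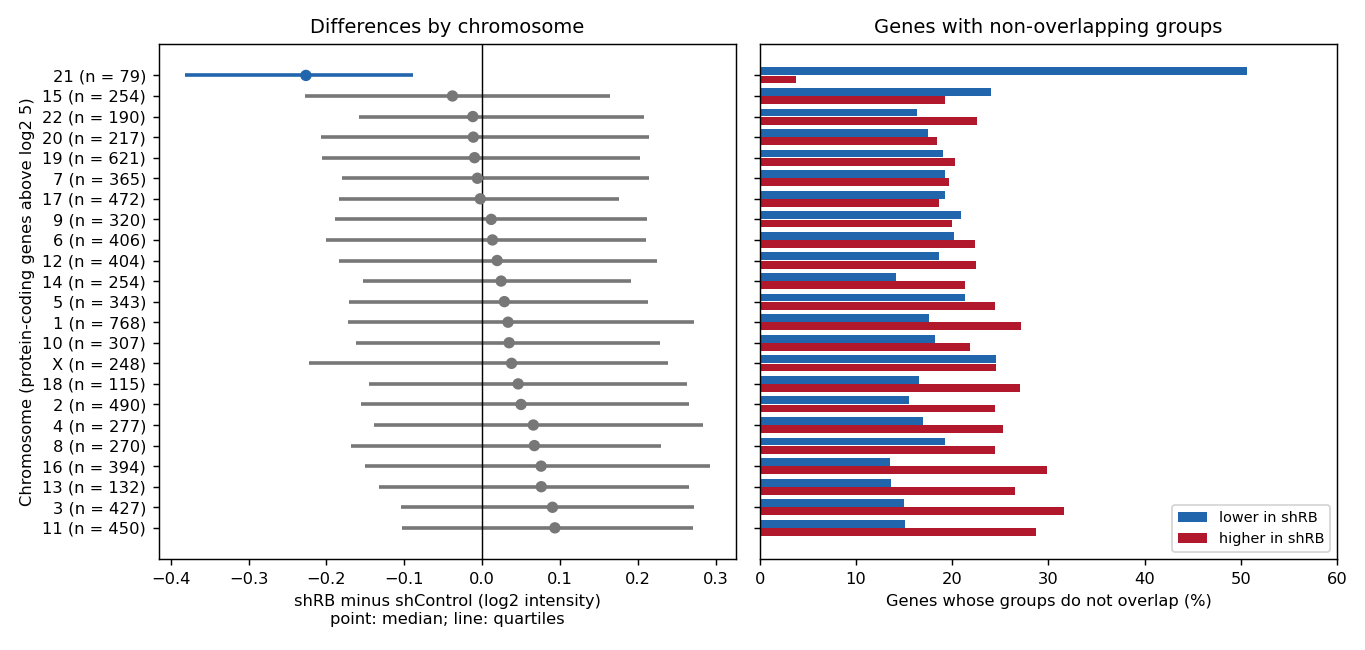
Protein-coding genes with mean log2 intensity above 5, by chromosome. The left panel shows the median log2 difference (point) with its quartiles (line), and the right panel the percentage of genes whose 3 shRB arrays all lie below (blue) or above (red) both shControl arrays. Chromosome 21 lies at -0.23 and the other 22 chromosomes between -0.04 and 0.09, and its blue bar reaches 50.6% against 13.5% to 24.6% elsewhere.

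Among the 23 chromosomes compared at the same level (the autosomes and X), chromosome 21 had the lowest median difference. The other 22 had medians from -0.04, on chromosome 15, to 0.09. Their shares of negative differences were 38.4% to 54.3%. Their shares of genes with every shRB array below both shControl arrays were 13.5% to 24.6%, and with every shRB array above, 18.4% to 31.6%, against 3.8% on chromosome 21. Chromosome 22, of a similar size, had a median of -0.01 over 190 genes. These are descriptions of the chromosomes, and no test was made across them.

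The difference held at each level of brightness above log2 5. From above 5 to 6, 36 genes of chromosome 21 had a median of -0.15, from above 6 to 7, 23 had -0.33, from above 7 to 8, 12 had -0.21, and above 8, 8 had -0.28. The matching medians on the other chromosomes were 0.04, 0.07, -0.01 and -0.05. Dim genes of chromosome 21 had no such shift. The 68 protein-coding genes at or below log2 5 had a median difference of 0.07 with 42.6% negative. They lie near the lowest value deposited, which is 4 on the log2 scale, where differences are compressed. Their median was 104.6% of the shControl level as deposited and 112.8% with the constant taken off. Why they differ from the brighter genes was not tested. Among the 65 noncoding genes and pseudogenes the median was 0.03, and 0.01 among the 19 of them above the level. Of these 65, 1 passed, LINC00161, which fell by 0.80 (limma, adjusted p = 0.0343), from 8.17 and 8.0 in shControl to 7.43, 7.22 and 7.21 in shRB.

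**Figure D3:**
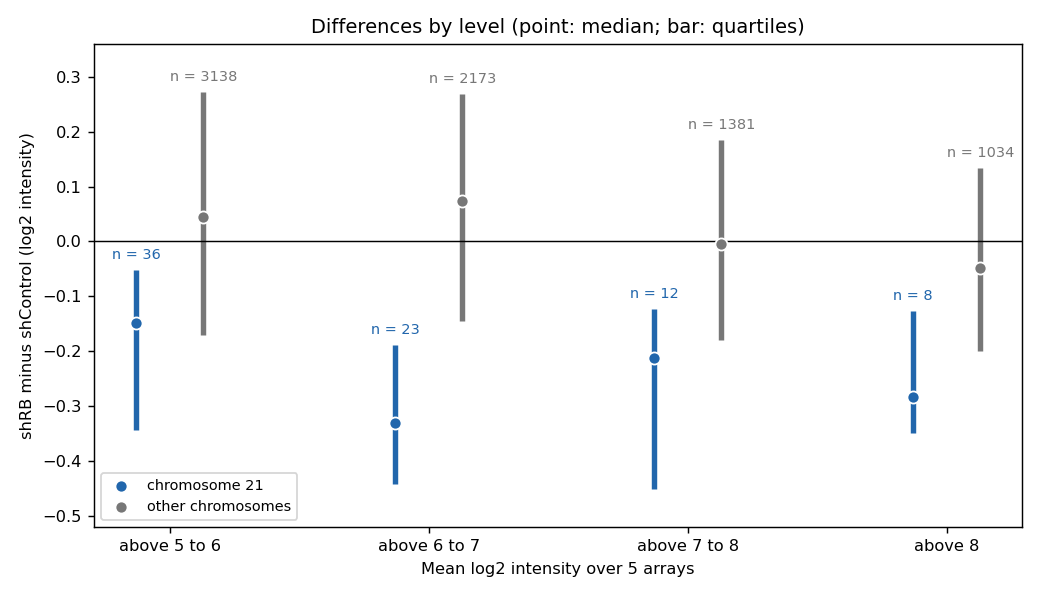
Median log2 difference (point) and quartiles (bar) by mean log2 intensity, for chromosome 21 (blue) and the other chromosomes (grey), protein-coding genes only. The chromosome 21 medians lie between -0.33 and -0.15 at all 4 levels, and those of the other chromosomes between -0.05 and 0.07.

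Chromatin and chromosome genes held the 1 gene that passed. BRWD1, a bromodomain and WD repeat protein that binds acetylated histones, had log2 intensities of 7.49 and 7.50 in shControl and 6.75, 6.80 and 6.55 in shRB. Every shRB array was lower by well over the spread within either group. It fell by 0.79 (SE 0.15, 95% interval -1.12 to -0.46, limma adjusted p = 0.0339). The group means were 7.49 ± 0.01 (SD, n = 2) and 6.70 ± 0.13 (SD, n = 3), a fall to 57.7% of its shControl level as deposited and 53.7% with the constant taken off. It passed in 6 of 13 other settings. It did not pass without shControl replicate 2 (limma, adjusted p = 0.0577), without shRB replicate 1, 2 or 3 (0.167, 0.146 and 0.2), with the replicate number as a block (0.224), with array weights (0.0646) or with the constant removed (0.152), and the difference was -0.87 to -0.72 over the 13 settings.

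Of 9 measured genes of that list 8 were above the level, of which 7 had negative differences, 1 passed and the median was -0.34. HMGN1, a nucleosome-binding protein, was at 6.64 and 7.0 in shControl and 6.57, 6.51 and 6.40 in shRB (difference -0.33, limma adjusted p = 0.305). The groups do not overlap, but the shControl arrays lie farther apart than the nearest arrays of the groups do, and the difference was -0.15 without shControl replicate 2 and -0.51 without shControl replicate 1. MIS18A, a centromere factor, MCM3AP, a nuclear export scaffold, and PCNT, the centrosomal pericentrin, had differences of -0.36, -0.39 and -0.38, the last -0.22 without shRB replicate 3. DONSON, a replication fork protein, went the other way, with 5.30 and 5.62 in shControl against 5.79, 5.76 and 5.85 in shRB (difference 0.34, limma adjusted p = 0.276). It was 0.18 without shControl replicate 1 and 0.50 without shControl replicate 2. Its neighbours SON and ITSN1 had -0.30 and -0.16.

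Genes of RNA processing and ribosome biogenesis had 11 measured, 10 above the level and 9 of these with negative differences, with a median of -0.16 and none past the adjusted threshold. RRP1, a nucleolar protein of ribosomal RNA processing, stood at 7.16 and 7.0 in shControl and at 6.47, 6.64 and 6.42 in shRB. This is a difference of -0.57 (SE 0.15, limma adjusted p = 0.0961), with no overlap between groups. Its paralog RRP1B, close by on the chromosome, stood at 6.72 and 7.07 against 6.30, 6.50 and 6.24 (difference -0.55, limma adjusted p = 0.122). Between them lies CSTB, the protease inhibitor cystatin B and the brightest of the 79 genes, at 9.82 and 9.77 in shControl and 9.76, 9.68 and 9.77 in shRB. CSTB differed by -0.06 (95% interval -0.37 to 0.25, limma adjusted p = 0.858), and its interval overlaps those of RRP1 (-0.90 to -0.24) and RRP1B (-0.91 to -0.19). Whether these neighbours differ from each other was not tested. SON, which holds splicing speckles together, was 8.69 and 8.72 in shControl and 8.45, 8.50 and 8.27 in shRB. U2AF1, which recognises the 3′ splice site, overlapped between groups (difference -0.15), as did URB1 (-0.18) and PAXBP1 (-0.15). SCAF4, which acts on transcription termination, had a difference of 0.08 with shRB arrays just above both shControl arrays.

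Of 7 measured genes of the ubiquitin and SUMO pathway 6 were above the level, and all 6 had negative differences, with a median of -0.39, and in 5 of them the groups did not overlap, beside 50.6% of the 79 genes and 15.4% of all genes tested. USP25 had a difference of 0.04 without shControl replicate 2. UBE2G2, a ubiquitin-conjugating enzyme of endoplasmic reticulum-associated degradation, was at 7.59 and 7.63 in shControl and at 7.13, 7.26 and 6.75 in shRB (difference -0.56, SE 0.17, limma adjusted p = 0.132). The third shRB array lies well below the other two. USP16, a histone H2A deubiquitinase, had 8.02 and 7.90 against 7.63, 7.48 and 7.45 (difference -0.44). LTN1, the ubiquitin ligase of stalled ribosomes, had 5.88 and 6.29 against 5.66, 5.56 and 5.69 (difference -0.44, or -0.24 without shControl replicate 2). SUMO3, a ubiquitin-like modifier, and TTC3, a ubiquitin ligase, had differences of -0.35 and -0.31, and USP25 of -0.11 with overlapping groups. None passed (limma, adjusted p of at least 0.132).

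Kinases and other signalling genes had 12 measured and 7 above the level, of which 6 had negative differences and none passed. DYRK1A, a kinase studied for its dosage in Down syndrome, was at 7.15 and 7.33 in shControl and at 6.62, 6.73 and 6.66 in shRB. The difference of -0.57 (SE 0.15, 95% interval -0.89 to -0.25) left 63.4% of the shControl level with the constant taken off and missed the threshold (limma, adjusted p = 0.0933). SIK1, a salt-inducible kinase, was at 6.04 and 5.91 against 5.35, 5.40 and 5.53 (difference -0.55, limma adjusted p = 0.0977). PTTG1IP, which binds securin, was at 7.43 and 7.45 against 6.89, 7.08 and 6.92 (difference -0.48). RCAN1, a calcineurin inhibitor, and the endocytic genes SYNJ1 and ITSN1 overlapped between groups, with differences of -0.04, 0.04 and -0.16, and each changed sign when 1 array was left out.

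Transcription factors and coregulators had 11 measured and 6 above the level, of which 5 had negative differences and none passed. ZBTB21, a zinc finger repressor, had log2 intensities of 7.03 and 7.06 in shControl and 6.71, 6.59 and 6.41 in shRB (difference -0.47, limma adjusted p = 0.146). NRIP1, a corepressor of nuclear receptors, had 8.70 and 8.67 against 8.30, 8.30 and 8.07 (difference -0.47), and its second, dimmer probe set gave -0.28. The homeobox gene PKNOX1 also had a positive difference, with 5.84 and 5.60 in shControl against 6.11, 6.03 and 6.05 in shRB (difference 0.34, SE 0.15, limma adjusted p = 0.257). The differences of PKNOX1 and DONSON kept their sign in all 13 other settings. With mean probe sets, dim genes left out or trend and robust variances, their differences are those of the main fit by construction. Where no shControl array was left out, each reached an unadjusted p of 0.05 (limma) only with mean probe sets and with dim genes left out. PKNOX1 was 0.22 without shControl replicate 2. ERG, at a mean of 4.68, and RUNX1, at 4.51, were too dim to be taken, with differences of -0.15 and -0.11.

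Since the hairpin targets RB1, the partner of the E2F factors, the promoters were searched for E2F words, and 4 are shown, those of the gene with the largest decrease (BRWD1), of the gene with the largest positive difference (PKNOX1), and of a lower and a nearly level gene that hold a match (LTN1 and IFNGR2). They are RefSeq sequences of GRCh38.p14, 250 bases before to 50 after the start, written 5′ to 3′ along the gene, with matches in capitals.
BRWD1, chr21:39313583-39313882, - strand: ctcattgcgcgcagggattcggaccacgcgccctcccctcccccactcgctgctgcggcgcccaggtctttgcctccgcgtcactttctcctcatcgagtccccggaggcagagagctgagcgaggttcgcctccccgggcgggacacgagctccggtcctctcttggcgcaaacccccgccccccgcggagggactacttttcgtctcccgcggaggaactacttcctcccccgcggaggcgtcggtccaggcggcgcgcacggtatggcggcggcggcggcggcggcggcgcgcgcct
PKNOX1, chr21:42974312-42974611, + strand: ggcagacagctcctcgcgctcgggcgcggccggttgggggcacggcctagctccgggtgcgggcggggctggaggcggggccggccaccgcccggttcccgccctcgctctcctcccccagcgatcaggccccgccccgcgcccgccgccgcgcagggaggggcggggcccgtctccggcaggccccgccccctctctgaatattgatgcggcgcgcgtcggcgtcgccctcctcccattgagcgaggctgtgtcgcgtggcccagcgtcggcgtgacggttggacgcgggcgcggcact
LTN1, chr21:28992828-28993127, - strand: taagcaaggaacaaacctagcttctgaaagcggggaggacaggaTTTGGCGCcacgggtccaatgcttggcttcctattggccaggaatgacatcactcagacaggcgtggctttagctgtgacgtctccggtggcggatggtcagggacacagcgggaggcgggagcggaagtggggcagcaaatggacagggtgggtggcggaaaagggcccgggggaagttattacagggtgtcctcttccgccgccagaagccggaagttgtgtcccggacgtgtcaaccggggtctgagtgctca
IFNGR2, chr21:33403163-33403462, + strand: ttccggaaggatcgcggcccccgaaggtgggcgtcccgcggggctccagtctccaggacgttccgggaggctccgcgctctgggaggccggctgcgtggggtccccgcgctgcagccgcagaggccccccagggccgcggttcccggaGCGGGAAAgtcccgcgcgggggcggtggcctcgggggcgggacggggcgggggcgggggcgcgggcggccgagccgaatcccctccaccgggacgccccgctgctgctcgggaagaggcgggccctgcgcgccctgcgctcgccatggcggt
The words were TTTCCCGC, TTTGGCGC, TTTCGCGC and TTTGCCGC on both strands, whose matches may overlap each other. BRWD1 and PKNOX1 hold none in this window, LTN1 holds TTTGGCGC from base -206 and IFNGR2 holds TTTCCCGC on the opposite strand from base -102. Of 61 members with a promoter in the table, 3 (4.92%) held a word, the third being KRTAP12-3, against 5.27% of 6454 promoters of the genes above the same level on other chromosomes and 3.33% of all 27305 promoters. An ETS word, CCGGAAG, was in 23.0% of the members' promoters, against 20.0% and 10.7%, and the CCAAT box, searched as CCAAT, in 27.9% against 37.6% and 35.7%. A match is a description of the letters and not a binding site.

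**Figure D4:**
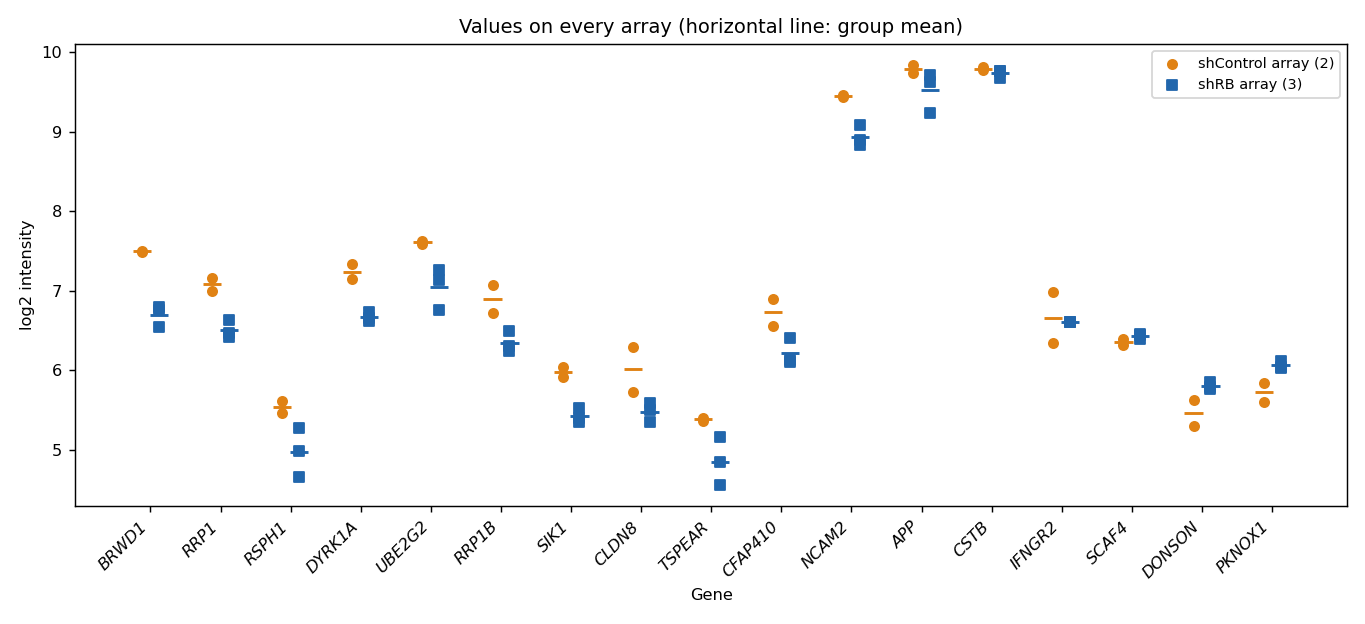
Log2 intensity (y axis) on each of the 2 shControl arrays (orange circles) and 3 shRB arrays (blue squares) for 17 genes named in the text, with horizontal lines at the group means. From BRWD1 to NCAM2 all blue squares lie below both orange circles, CSTB and APP do so by little, IFNGR2 overlaps, and SCAF4, DONSON and PKNOX1 lie above.

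Of 6 measured adhesion genes 3 were above the level. Of these NCAM2 and CLDN8 were lower without overlap, as were 50.6% of the 79 genes and 15.4% of all genes tested. NCAM2, a neural cell adhesion molecule, is among the brightest of the 79 genes and stood at 9.46 and 9.44 in shControl and 9.08, 8.89 and 8.83 in shRB (difference -0.51, SE 0.15, limma adjusted p = 0.114). CLDN8, a tight junction claudin, stood at 6.29 and 5.72 against 5.58, 5.34 and 5.50 (difference -0.54, limma adjusted p = 0.165), with shControl arrays farther apart than the groups. It was -0.82 and passed without shControl replicate 2 (limma, adjusted p = 0.0483), and was -0.25 without shControl replicate 1. APP, cleaved to amyloid beta, stood at 9.84 and 9.74 against 9.72, 9.62 and 9.24 (difference -0.26, limma adjusted p = 0.453). The third shRB array is the lowest, and without it the difference was -0.12. CLDN14 overlapped, with a difference of 0.09.

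All 4 measured genes of membrane traffic were above the level, and 3 were lower without overlap, where 50.6% of the 79 genes and 15.4% of all genes tested were. VPS26C, of the retriever complex for endosomal recycling, stood at 5.84 and 5.73 in shControl and 5.39, 5.48 and 5.42 in shRB (difference -0.35, limma adjusted p = 0.227). DOP1B and TRAPPC10, the latter of a Golgi tethering complex, had -0.36 and -0.42, or -0.22 for DOP1B without shControl replicate 1 and -0.20 for TRAPPC10 without shControl replicate 2. GET1, of tail-anchored protein insertion, overlapped between groups and had 0.14, or -0.01 without shControl replicate 2.

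Metabolic enzymes were closer to level, with a median of -0.13 over the 6 of 7 measured genes above the level, and all differences between -0.17 and 0.04. Among them FTCD and HLCS had shControl arrays far apart. FTCD was -0.75 without shControl replicate 1 and 0.45 without shControl replicate 2, and HLCS was 0.23 and -0.53. PDE9A, a cyclic GMP phosphodiesterase, stood at 7.51 and 7.53 against 7.49, 7.34 and 7.24 (difference -0.17, limma adjusted p = 0.593). CBS, of cysteine synthesis, and the carbonyl reductases CBR1 and CBR3 overlapped between groups, with differences of -0.12, -0.07 and 0.04, the signs of CBR1 and CBR3 turning when 1 array was left out. Of the mitochondrial list, GATD3 stood at 7.23 and 6.93 against 6.88, 6.73 and 6.77 (difference -0.28, limma adjusted p = 0.366), or -0.13 without shControl replicate 1. The mitochondrial ribosomal protein MRPL39 stood at 7.95 and 8.06 against 8.03, 8.03 and 8.01 (difference 0.02, 95% interval -0.29 to 0.33).

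Of the receptor genes for interferons and interleukin-10, MX proteins included, 2 were measured and IFNGR2, a chain of the interferon gamma receptor, was above the level. It stood at 6.98 and 6.34 in shControl and at 6.61, 6.61 and 6.61 in shRB, a difference of -0.05 (95% interval -0.46 to 0.36). The shRB arrays lie between the 2 shControl arrays, and the difference was 0.27 without shControl replicate 1. The trefoil peptide gene TFF3, of mucous secretions, overlapped as well (difference -0.05, limma adjusted p = 0.882). TMPRSS2, SOD1, CHAF1B, IFNAR1, IFNAR2 and IL10RB were not analysed here.

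Of 44 measured keratin-associated protein genes, which encode hair shaft proteins, 9 were above log2 5, and 7 of these had negative differences, with a median of -0.13. Several of these 9 are close copies of each other, so their probe sets may share signal. The brightest, KRTAP10-10, was at 6.71 and 7.12 in shControl and 6.73, 6.49 and 6.57 in shRB (difference -0.32, limma adjusted p = 0.348). It was -0.11 without shControl replicate 2 and -0.52 without shControl replicate 1. Without these genes the median over the other 70 was -0.24. The 14 genes in none of the lists had a median of -0.31 with 12 negative differences. Among them CFAP410, a ciliary protein, was at 6.56 and 6.90 against 6.13, 6.41 and 6.11 (difference -0.52, limma adjusted p = 0.149). RSPH1, of the radial spoke of motile cilia, was at 5.62 and 5.46 against 5.27, 4.65 and 4.98 (difference -0.57, limma adjusted p = 0.151). TSPEAR was at 5.36 and 5.40 against 5.16, 4.55 and 4.84 (difference -0.53, limma adjusted p = 0.166). The shRB means of RSPH1 (4.97) and TSPEAR (4.85) are below the level, so both were taken only through shControl. DIP2A was at 6.60 and 6.67 against 6.18, 6.23 and 6.12 (difference -0.46).

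Near the level that made a gene a member, TSPEAR and RSPH1 had shRB means below 5 and entered through shControl. Both are counted among the 67 genes with negative differences and the 40 lower without overlap. They are also among the 24 lower at an unadjusted p of 0.05 (limma). CLDN14 had an shControl mean below 5 and entered through shRB. The 3 lowest genes taken were CLDN14 at 5.05, TSPEAR at 5.06 and KRTAP12-4 at 5.09, with differences of 0.09, -0.53 and 0.05. The 3 highest genes left out were POFUT2 at 5.00, TFF1 at 4.98 and KRTAP12-2 at 4.94, with differences of -0.39, 0.11 and 0.06. With the level raised to 6, 43 genes remained, of which 39 had negative differences, with a median of -0.30. With no level, the median over all 147 protein-coding genes was -0.11.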

How the data were processed

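RNA of 5 samples was hybridised, as biotin-labelled cDNA, to single-colour arrays, 2 for shControl and 3 for shRB, per the labels. The values deposited by the authors are probe set intensities on a linear scale. How they were summarised and normalized, with which software and build, is not given in the sources used here. The lowest deposited value was just above 16, as an added constant of 16 would give, which compresses differences of dim genes. Precision is limited by the number of arrays, whose medians were 26.65 to 28.06.

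Of 44607 probe sets, 15835 had 1 gene symbol in the platform annotation. Symbols, gene types and order came from RefSeq GRCh38.p14 by Entrez identifier. For each gene the brightest probe set on average was kept, leaving 14812 genes. Intensities were log2-transformed with no further normalization and shRB was set against shControl in limma 3.58.1 under R 4.3.3, two-sided and without covariates. P-values were adjusted by Benjamini and Hochberg's method over all genes, at 0.05. Simulated data with known changes served to test the script. No p was computed over the members.

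The members, lists and settings were chosen with earlier results of these data known. Genes named by rule are those that passed, the 10 largest non-overlapping differences each way (3 were positive), the 3 brightest, the smallest p of each list, a fixed set and those nearest the level. Others were named after their values were seen. Other settings tried were subtraction of array medians, quantile normalization, removal of 16 with 4 added, mean probe sets, dim genes left out, trend and robust variances, array weights, the replicate block and leaving out each array, besides other levels and a threshold of 0.1.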

Additional observations from a re-analysis of the deposited data

How the results depend on the processing

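The median over the 79 genes stayed negative in all 13 other fits (-0.28 to -0.21), with 61 to 71 of the genes negative. Chromosome 21 had the lowest median of the 23 chromosomes in each. These fits are not 13 separate checks. Trend and robust variances and leaving out dim genes cannot change the differences, and mean probe sets left the median at -0.23. The replicate block gave the same differences as leaving out shRB replicate 3. The median was -0.28 to -0.21 when 1 array was left out, -0.30 with the level at 6 and -0.11 with no level. The number of the 79 genes called by limma was 0 with the constant of 16 removed, with array weights and with the replicate block. At an unadjusted p of 0.05 (limma), 20, 20 and 16 of the 79 were lower there, against 5.95%, 5.37% and 4.31% of all genes tested. The number called was 5 with trend and robust variances (BRWD1, DYRK1A, NCAM2, NRIP1 and RRP1), where 426 of all 14812 genes were. It was 4 at an adjusted threshold of 0.1, where 517 of all genes were. It was 0 without shRB replicate 1, 2 or 3. In these fits 21, 16 and 18 of the 79 were lower at an unadjusted p of 0.05 (limma), against 5.91%, 5.25% and 4.29% of all genes tested. Over all genes the calls numbered 159, and 13 with the constant removed, 303 without genes at or below log2 5, 426 with trend and robust variances, 88 with array weights, 24 with the replicate block, 517 at a threshold of 0.1 and 22 to 411 when 1 array was left out. The share of increases among the calls was 103 of 159 and moved to 4 of 13 with the constant removed and 60 of 115 after quantile normalization. Replicate numbers shared by the groups did not pair the arrays by label, and deviations of same-numbered arrays correlated at -0.02 and 0.05 over genes. Where shControl has 1 array left, it is assumed to vary like shRB. With 1 array left out in turn, the difference ranged from -0.0301 to 0.203 for CLDN14, -0.37 to 0.27 for IFNGR2, -0.0538 to 0.158 for KRTAP12-4, -0.78 to 0.0022 for POFUT2 and -0.24 to 0.46 for TFF1, whose signs turned without shControl replicate 1. It ranged from -0.39 to 0.0931 for ERG and -0.157 to 0.0503 for TFF3, whose signs turned without shControl replicate 2. None of these 7 had passed. The causes were not tested.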
